A study of Mus musculus with 120 samples.

Results

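The genes described here encode the laminin chains, 5 further matrix proteins of or next to basement membranes (nidogens Nid1 and Nid2, the heparan sulfate proteoglycans perlecan, Hspg2, and agrin, Agrn, and fibronectin, Fn1) and the integrin subunits that bind such matrix. They were taken by name, as every symbol formed of Lama, Lamb or Lamc and a digit, or of Itga or Itgb and a suffix, leaving out names that end in bp or l1, with the 5 named matrix genes added. This gave 45 of the 48371 gene symbols: 16 ligand genes (5 laminin alpha, 3 beta and 3 gamma chains and the 5 other matrix proteins), 27 receptor genes (18 integrin alpha and 9 beta subunits) and 2 proteins that bind an integrin tail or partner, Itgb1bp1 and Itgb1bp2, which the naming rule takes in although they are not subunits.

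The values come from single cells of the mouse endolymphatic sac, the blind epithelial pouch of the inner ear that handles its fluid, collected at E14.5 and sequenced by Smart-seq2, a full-length protocol for 1 cell at a time. The mutant animals were Sox9Y440X/+, heterozygous for a Sox9 allele named for a stop codon at residue 440 and carrying 1 wild-type copy; the others were wild type (WT). After removal of cells with fewer than 1000 genes, 58 of 62 Sox9Y440X/+ and 57 of 58 WT cells were used. Cells were classed by cluster from marker genes as epithelium-like (37 Sox9Y440X/+ and 56 WT cells) or mesenchyme-like, that is connective tissue (21 Sox9Y440X/+ cells and 1 WT cell).

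No label says which animal a cell came from, so each genotype is 1 sample. Counts of cells out of 21, 37 and 56 always stand for the Sox9Y440X/+ mesenchyme-like, Sox9Y440X/+ epithelium-like and WT epithelium-like cells. Cells are not replicates, no test was possible and no p-value is given. Each value is an FPKM, which is scaled to transcript length and to the reads of the cell; a gene was counted as present in a cell at an FPKM of at least 1. Differences are between means of log2(FPKM + 1), and a difference of at least 1 on this scale was called. SDs are over cells and show the spread between cells, not the error of a mean or of a difference. Intervals on shares of cells are exact 95% Clopper-Pearson intervals that cover counting error only. The limit that a count of 0 allows is a separate and lower figure, given as 3 cells of the group. Read depth per cell is unknown. The median number of genes per cell was 3593 in Sox9Y440X/+ mesenchyme-like, 4506 in Sox9Y440X/+ epithelium-like and 3241.5 in WT epithelium-like cells. Cells that held a member had a higher median number of genes than cells that lacked it for 15 of 18 members in mesenchyme-like, 20 of 23 in Sox9Y440X/+ epithelium-like and 25 of 25 in WT epithelium-like cells. Sox9 itself was present in 36 of 37 Sox9Y440X/+ and 29 of 56 WT epithelium-like cells, which does not check the allele, since a transcript level does not show a stop codon.

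The clusters were named from the marker lists counted here, so these counts describe the classes and do not check their names. The 14 epithelial markers numbered 6 to 14 per cell in Sox9Y440X/+ epithelium-like cells and 5 to 14 in WT epithelium-like cells, against 0 to 2 in Sox9Y440X/+ mesenchyme-like cells. Mesenchymal markers, of 16, had a median of 8 per cell in the Sox9Y440X/+ mesenchyme-like group and of 1 in either epithelium-like group. At least 3 of them were held by 4 of 37 Sox9Y440X/+ and 1 of 56 WT epithelium-like cells. Within the mesenchyme-like group, 1 cell held 11 of 11 endothelial markers and a single mesenchymal marker, and 1 other held 3 pericyte markers. For some members and chain sets, class differences and counts of mesenchyme-like cells are also given without both, out of the 19 other cells. All other values of this group include both cells, so a value given alone can still be moved by them. Of the 10 chondrocyte markers, the median was 3 per cell in the Sox9Y440X/+ mesenchyme-like group and 1 in either epithelium-like group. At least 3 of them were held by 11 of 21 Sox9Y440X/+ mesenchyme-like, 6 of 37 Sox9Y440X/+ epithelium-like and 10 of 56 WT epithelium-like cells. Xist, which marks female cells, was present in 34 of 56 WT epithelium-like and in 0 of 37 Sox9Y440X/+ epithelium-like cells. It was present in 0 of 21 Sox9Y440X/+ mesenchyme-like cells. Sex thus goes at least in part with genotype, and their parts in a genotype difference cannot be told apart.

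Laminins are secreted as trimers of an alpha, a beta and a gamma chain and polymerise on cell surfaces into the sheet on which a basement membrane is built; nidogens and perlecan link that sheet to type IV collagen. Integrins are pairs of an alpha and a beta subunit that span the cell membrane and tie the matrix to the cytoskeleton. Epithelia commonly carry the laminin receptors formed by Itga3 or Itga6 with Itgb1, and Itga6 with Itgb4 in hemidesmosomes, while Itga5 with Itgb1 is the classic fibronectin receptor. In the inner ear, as elsewhere, a basement membrane lies between the epithelium and the surrounding mesenchyme.

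The promoters of 4 members are shown because these were called in opposite directions between the classes: a ligand and a receptor subunit lower in mesenchyme-like cells (Lama5 and Itgb6), and a ligand and a receptor subunit higher there (Nid1 and Itga5). The calls of both receptor subunits depend on the cells used: that of Itga5 ends without the cells with endothelial and pericyte markers (0.76), and that of Itgb6 ends among cells with 2500 to 5500 genes (-0.83). Nid1 and Itga5 were also present in some epithelium-like cells. Each line gives the 250 bases before the RefSeq transcript start on GRCm38.p6, 5′ to 3′ on the strand of the gene. The positions are chr2:180225860-180226109 (minus strand) for Lama5, chr2:60722604-60722853 (minus strand) for Itgb6, chr13:13437352-13437601 (plus strand) for Nid1 and chr15:103366792-103367041 (minus strand) for Itga5. Capitals mark matches, on either strand, to an E-box (CAGGTG), a SOX core (ACAATG) or an AP-1 motif (TGANTCA), none of which overlap in these windows.
Lama5: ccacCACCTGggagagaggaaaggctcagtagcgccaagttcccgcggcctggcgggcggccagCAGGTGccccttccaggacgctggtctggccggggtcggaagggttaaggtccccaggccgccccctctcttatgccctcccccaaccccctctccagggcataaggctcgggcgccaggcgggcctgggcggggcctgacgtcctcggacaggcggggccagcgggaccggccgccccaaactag
Itgb6: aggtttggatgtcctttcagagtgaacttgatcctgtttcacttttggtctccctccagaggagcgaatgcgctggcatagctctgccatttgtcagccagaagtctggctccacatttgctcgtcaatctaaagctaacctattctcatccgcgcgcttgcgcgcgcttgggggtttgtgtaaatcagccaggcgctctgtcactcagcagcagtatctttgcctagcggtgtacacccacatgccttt
Nid1: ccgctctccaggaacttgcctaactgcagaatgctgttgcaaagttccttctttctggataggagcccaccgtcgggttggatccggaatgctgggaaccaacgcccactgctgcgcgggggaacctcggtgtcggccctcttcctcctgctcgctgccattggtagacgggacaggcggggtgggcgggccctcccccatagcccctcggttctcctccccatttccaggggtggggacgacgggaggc
Itga5: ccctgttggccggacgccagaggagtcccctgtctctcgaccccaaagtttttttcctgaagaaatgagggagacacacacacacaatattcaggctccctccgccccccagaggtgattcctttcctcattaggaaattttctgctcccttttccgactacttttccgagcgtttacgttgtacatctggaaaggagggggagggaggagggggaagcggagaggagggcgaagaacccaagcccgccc
Lama5 held the E-box letters 2 times and neither of the other motifs, and no motif was found in the windows of Itgb6, Nid1 and Itga5. The E-box letters were in 8 of 32 windows of members (25%), against 17.2% of all 32851 windows. The SOX core was in 1 of 32 windows of members, against 10.7% of all windows, and the AP-1 motif likewise in 1 of 32, against 6.75%. The table held windows for 28 of the 45 members, and Fn1, Itga6, Lama4, Lamc1 and Nid2 are among those named only. GC content was 72.4% in the Lama5 window, 52% for Itgb6, 64.4% for Nid1 and 55.6% for Itga5, against a median of 52.4% over all windows.

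The main division ran between epithelium and connective tissue, and it ran through the laminin alpha chains. Within Sox9Y440X/+ cells, 25 of the 45 members were present in at least 10% of the cells compared; 6 of them were called higher in mesenchyme-like cells (Fn1, Nid2, Lama4, Nid1, Itga9 and Itga5) and 7 lower, among them Lama5, Itga6, Agrn, Itga4, Lamb2 and Itgb6. Over the 9880 genes tested in this comparison, 8.84% were called higher and 18% lower. The 10% limit applies to both classes pooled, so a gene seen only in the smaller mesenchyme-like group meets it less easily. A gene present in 1 class alone passes the limit through that class and can only come out higher there. This holds for Lama4 among the members called higher in mesenchyme-like cells, and for Lama5, Itga4 and Itgb6 among those called lower. Both points affect the counts of members and of all tested genes. The median difference was -0.55 over the 25 members and -0.20 over all tested genes, and 12 of the 25 members were above 0, against 38.8% of all tested genes. The calls were 4 higher and 4 lower among the 12 ligand genes that were tested, and 2 higher and 3 lower among the 12 receptor genes. Fn1 and Lama5 had the differences of greatest size, 4.55 and -3.06.

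**Figure D1:**
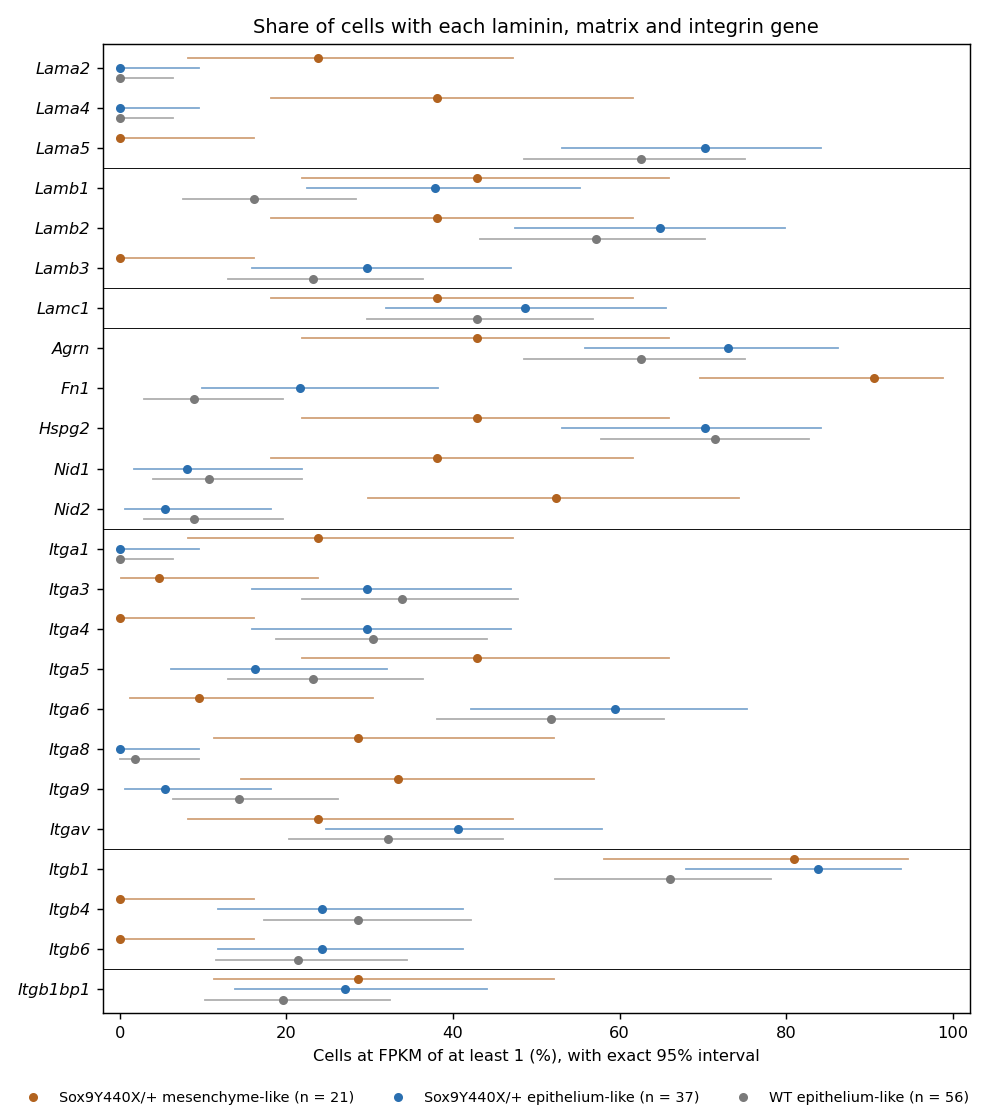
Share of cells (%, horizontal axis) at an FPKM of at least 1 for 24 members described singly, grouped by role, in Sox9Y440X/+ mesenchyme-like (brown), Sox9Y440X/+ epithelium-like (blue) and WT epithelium-like cells (grey); lines are exact 95% intervals. Lama5, Lamb3, Itga4, Itgb4 and Itgb6 sit at 0 of 21 in the mesenchyme-like cells, and Lama2, Lama4 and Itga1 at 0 in both epithelium-like groups.

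Lama5, the alpha chain that is widespread in epithelial basement membranes (chr2:180176373-180225859, minus strand, mm10), was present in 0 of 21 Sox9Y440X/+ mesenchyme-like cells, which allows a share of up to 14.3%. It was present in 26 of 37 Sox9Y440X/+ epithelium-like cells (70.3%, interval 53 to 84.1%) and in 35 of 56 WT epithelium-like cells (62.5%, 48.5 to 75.1%). Its FPKM was 0 in every mesenchyme-like cell, had a median of 5.87 and a highest value of 336 in Sox9Y440X/+ epithelium-like cells, and a median of 3.75 and a highest value of 432 in WT epithelium-like cells. The epithelium-like groups overlapped over nearly their whole range, and some cells in each were at 0. On the log2 scale Lama5 averaged 0 in mesenchyme-like, 3.06 ± 2.49 in Sox9Y440X/+ epithelium-like and 2.98 ± 2.92 in WT epithelium-like cells (SD over cells).

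Connective tissue cells held other alpha chains. Lama4, a chain typical of vessels and mesenchyme (chr10:38965515-39110188, plus strand), was present in 8 of 21 Sox9Y440X/+ mesenchyme-like cells (38.1%, 18.1 to 61.6%) and in 0 of 37 Sox9Y440X/+ and 0 of 56 WT epithelium-like cells. These zeros allow shares of up to 8.11% and 5.36%. Its highest value was 81.9 FPKM, in the cell with pericyte markers, and the cell with endothelial markers had 18.8. The difference of Lama4 was 1.70, and 1.32 without those 2 cells, where 6 of 19 held it. Lama2, the alpha chain of muscle and many mesenchymal matrices, was present in 5 of 21 mesenchyme-like cells and in none of the epithelium-like cells of either genotype; at 1.08 its difference passed the size used for calls, but it was present in under 10% of the cells compared and is not among the calls. A single cell, at 399.5 FPKM, carried 69.9% of the summed Lama2 signal. Lama2 and Lama4 were mostly in different cells, with 1 of the 8 Lama4 cells holding Lama2.

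The remaining alpha chains were rare. Lama1, a chain of early embryonic basement membranes, was present in 1 of 21 Sox9Y440X/+ mesenchyme-like, 4 of 37 Sox9Y440X/+ epithelium-like and 2 of 56 WT epithelium-like cells. Lama3, an alpha chain known from the skin, was present in 0 of 21, 1 of 37 and 3 of 56 cells of the same groups. Lama5 made up 95.3% of the alpha chain FPKM of Sox9Y440X/+ epithelium-like and 97.2% of that of WT epithelium-like cells. In mesenchyme-like cells Lama2 made up 70.1% and Lama4 28.6%, with the reservation on the single Lama2 cell.

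Lamc1, the gamma chain of most laminins, was shared by both classes. It was present in 8 of 21 Sox9Y440X/+ mesenchyme-like, 18 of 37 Sox9Y440X/+ epithelium-like and 24 of 56 WT epithelium-like cells, and its class difference of -0.55 was not called. Lamc3 reached an FPKM of 1 in no cell.

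Among beta chains, Lamb3 was confined to epithelium-like cells in these data, with 0 of 21 Sox9Y440X/+ mesenchyme-like, 11 of 37 Sox9Y440X/+ epithelium-like and 13 of 56 WT epithelium-like cells. Its class difference of -0.96 was just under the size of a call. Lamb2, a beta chain that replaces Lamb1 in many mature basement membranes, was present in 8 of 21, 24 of 37 and 32 of 56 cells of these groups, with a difference of -1.23 (-1.09 without the 2 cells with other markers). Its median was 0 FPKM in mesenchyme-like, 6.99 in Sox9Y440X/+ epithelium-like and 7.76 in WT epithelium-like cells. Lamb1, the beta chain of the embryonic laminins, was present in 9 of 21, 14 of 37 and 9 of 56 cells. Its class difference was 0.62, and 0.23 without the 2 cells, where 7 of 19 held it. Lamb1 and Lamb2 made up 60.9% and 39.1% of the beta chain FPKM of mesenchyme-like cells.

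**Figure D2:**
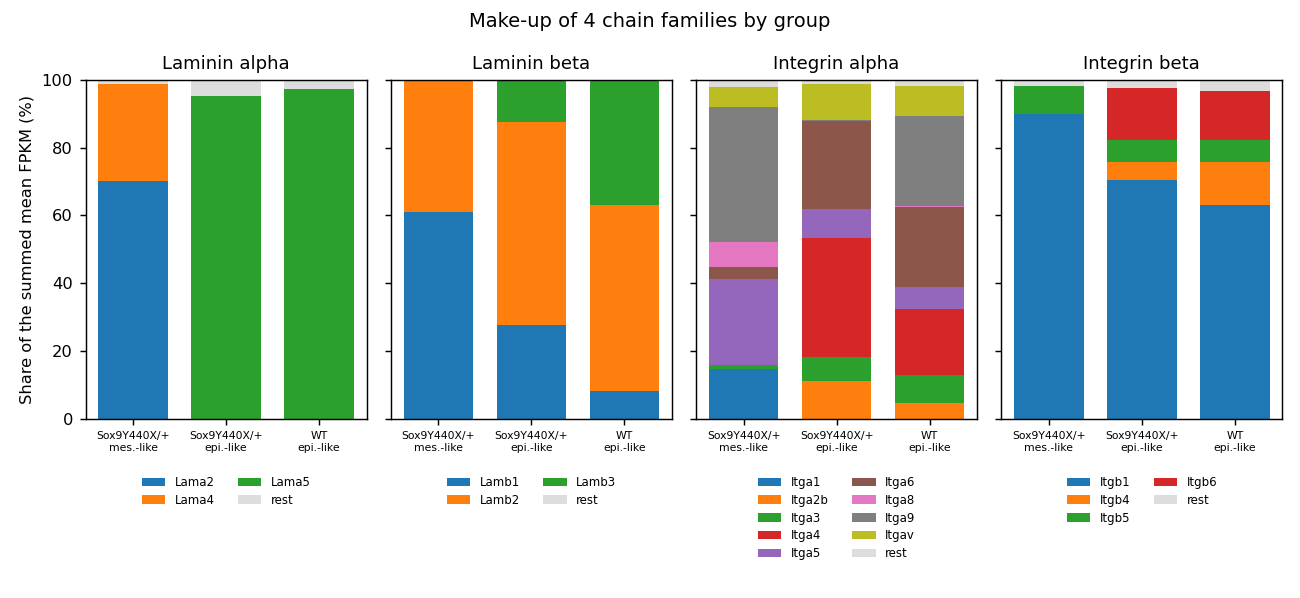
Make-up of the laminin alpha and beta and the integrin alpha and beta chains, as the share (%, vertical axis) of the summed mean FPKM over cells of each group; chains under 5% in every group are joined as rest. Lama5 gives 95.3% of the laminin alpha signal in Sox9Y440X/+ and 97.2% in WT epithelium-like cells, and Itgb1 most of the integrin beta signal in each group; means are moved by single high cells, as for Lama2.

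Of the matrix proteins beside laminin, Fn1, Nid2 and Nid1 were called higher in mesenchyme-like cells and Agrn alone was called lower, while Hspg2 was not called. Fn1, fibronectin (chr1:71585520-71653200, minus strand), was present in 19 of 21 Sox9Y440X/+ mesenchyme-like cells (90.5%, 69.6 to 98.8%), 8 of 37 Sox9Y440X/+ epithelium-like cells (21.6%, 9.83 to 38.2%) and 5 of 56 WT epithelium-like cells (8.93%, 2.96 to 19.6%). The median was 63.2 FPKM in mesenchyme-like cells and 0 in both epithelium-like groups, with a highest FPKM of 522 in mesenchyme-like, 214 in Sox9Y440X/+ epithelium-like and 112 in WT epithelium-like cells. Apart from 2 mesenchyme-like cells at 0, the mesenchyme-like values lay at 12.4 FPKM or above. Most epithelium-like cells were at 0, but most of the few that held Fn1 reached that range too. The difference of 4.55 was 4.94 without the 2 cells, and 4.32 among cells with 2500 to 5500 genes.

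Nid2 (chr14:19751265-19811787, plus strand) was present in 11 of 21 Sox9Y440X/+ mesenchyme-like cells (52.4%, 29.8 to 74.3%), 2 of 37 Sox9Y440X/+ epithelium-like cells and 5 of 56 WT epithelium-like cells, and its difference was 2.32. Nid1 (chr13:13437551-13512269, plus strand) was present in 8 of 21 (38.1%, 18.1 to 61.6%), 3 of 37 and 6 of 56 cells, with a difference of 1.43, or 1.10 without the 2 cells. Both nidogens were present in a larger share of the mesenchyme-like cells than of either epithelium-like group, although Nid1 was also seen in some epithelium-like cells of both genotypes. Without the 2 cells, 6 of 19 mesenchyme-like cells held Nid1. Cell by cell, 5 of the 11 mesenchyme-like cells with Nid2 held Nid1, as did 3 of the 10 without it. The cells with endothelial and pericyte markers were 2 of those 3, and without them it was 1 of 8.

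Agrn (chr4:156165290-156197488, minus strand) was present in 9 of 21 Sox9Y440X/+ mesenchyme-like (42.9%, 21.8 to 66.0%), 27 of 37 Sox9Y440X/+ epithelium-like (73.0%, 55.9 to 86.2%) and 35 of 56 WT epithelium-like cells (62.5%, 48.5 to 75.1%). Its median FPKM was 0 in mesenchyme-like, 11 in Sox9Y440X/+ epithelium-like and 4.25 in WT epithelium-like cells, and the difference was -1.68. Hspg2 was present in 9 of 21, 26 of 37 and 40 of 56 cells, but at low values: its highest FPKM was 19 in mesenchyme-like, 22.3 in Sox9Y440X/+ epithelium-like and 25.1 in WT epithelium-like cells, and its difference of -0.61 was not called. The highest mesenchyme-like value of Hspg2 belonged to the cell with endothelial markers.

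**Figure D3:**
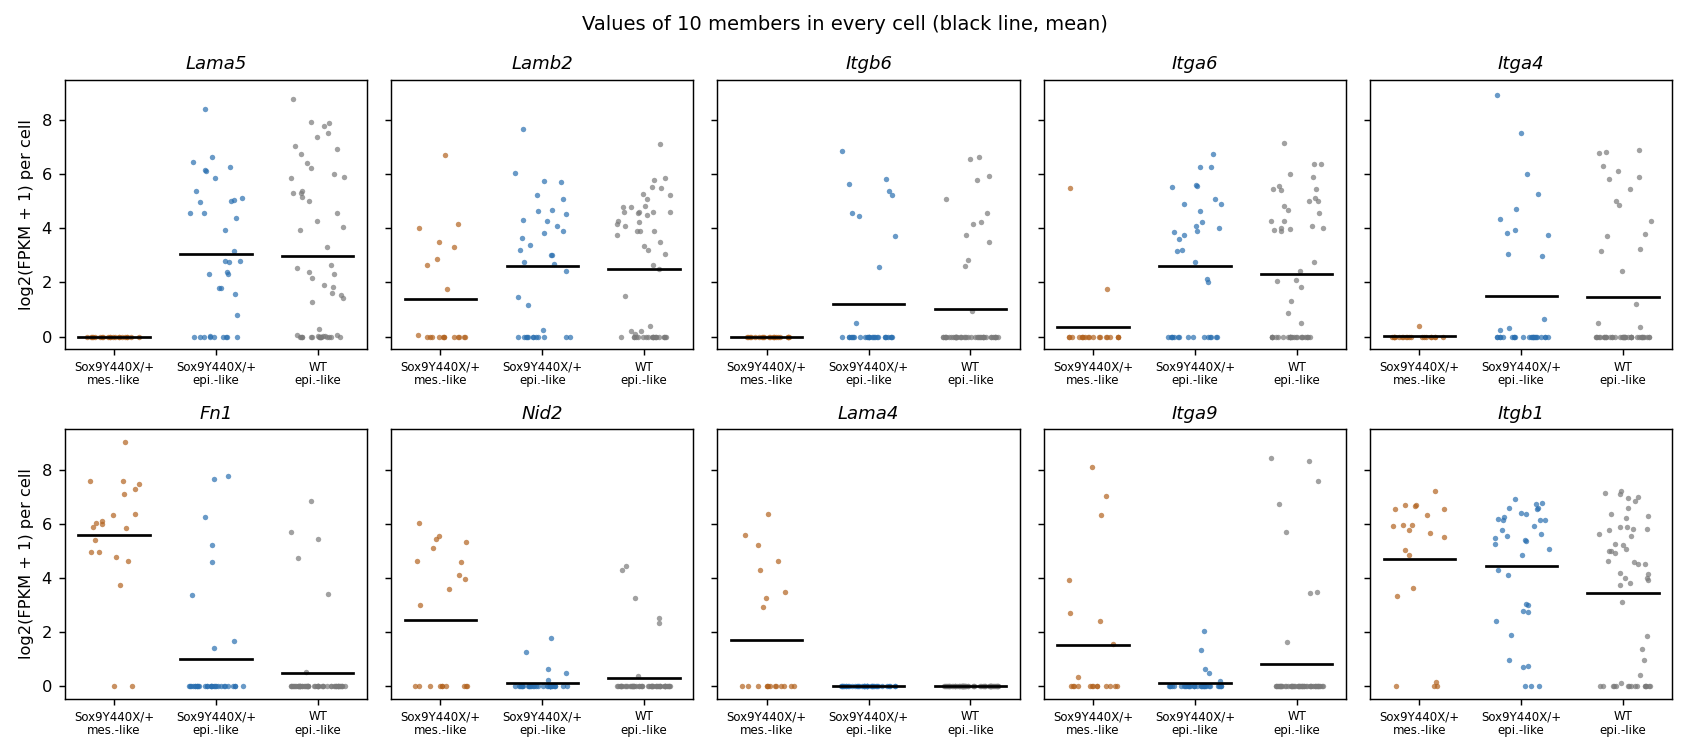
log2(FPKM + 1) (vertical axis) of 10 members in every cell of the Sox9Y440X/+ mesenchyme-like (n = 21), Sox9Y440X/+ epithelium-like (n = 37) and WT epithelium-like (n = 56) groups; each point is a cell and the black line is the mean. Lama5, Itgb6 and Itga6 points above 0 lie almost all in the epithelium-like groups, those of Lama4 all in the mesenchyme-like group, and Itgb1 is above 0 in most cells of each group (17 of 21, 31 of 37 and 37 of 56 at an FPKM of at least 1).

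Integrin beta subunits set the background for the receptors. Itgb1, the shared beta subunit of most matrix receptors (chr8:128685654-128733200, plus strand), was the most frequent receptor gene, in 17 of 21 Sox9Y440X/+ mesenchyme-like cells (81.0%, 58.1 to 94.6%), 31 of 37 Sox9Y440X/+ epithelium-like cells (83.8%, 68.0 to 93.8%) and 37 of 56 WT epithelium-like cells (66.1%, 52.2 to 78.2%). Its median FPKM was 53.3 in mesenchyme-like, 41.3 in Sox9Y440X/+ epithelium-like and 16.8 in WT epithelium-like cells. The class difference was 0.24, with an SD over cells of 2.50 in mesenchyme-like and 2.25 in epithelium-like Sox9Y440X/+ cells; among cells with 2500 to 5500 genes it was 1.09. Itgb1 made up 89.8% of the beta subunit FPKM in mesenchyme-like, 70.3% in Sox9Y440X/+ epithelium-like and 63% in WT epithelium-like cells.

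Itgb4 and Itgb6 were seen in epithelium-like cells only. Itgb4, the hemidesmosome subunit, was present in 0 of 21 Sox9Y440X/+ mesenchyme-like, 9 of 37 Sox9Y440X/+ epithelium-like and 16 of 56 WT epithelium-like cells, with a class difference of -0.91. Itgb6, an epithelial subunit that pairs with Itgav and activates latent TGF-beta (chr2:60598292-60722643, minus strand), was present in 0 of 21, 9 of 37 and 12 of 56 cells. The median of Itgb6 among cells that held it was 36.1 FPKM in Sox9Y440X/+ and 20.3 FPKM in WT epithelium-like cells. Its difference was -1.21, and -0.83 among cells with 2500 to 5500 genes, which ends that call. Itgb5 and Itgb8, which also pair with Itgav, showed no such division: Itgb5 was present in 5 of 21, 8 of 37 and 7 of 56 cells and Itgb8 in 3 of 21, 6 of 37 and 12 of 56.

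Of the alpha subunits that recognise laminin, Itga6 (chr2:71745616-71858416, plus strand) was present in 2 of 21 Sox9Y440X/+ mesenchyme-like cells (9.52%, 1.17 to 30.4%), 22 of 37 Sox9Y440X/+ epithelium-like cells (59.5%, 42.1 to 75.2%) and 29 of 56 WT epithelium-like cells (51.8%, 38 to 65.3%). Its median FPKM was 0 in mesenchyme-like, 7.84 in Sox9Y440X/+ epithelium-like and 2.02 in WT epithelium-like cells, and the difference was -2.25. Itga3 was present in 1 of 21, 11 of 37 and 19 of 56 cells, and the 1 mesenchyme-like cell was the cell with endothelial markers. Its difference was -0.94, and -1.14 without the 2 cells, past the size of a call. Itga7, a laminin receptor subunit of muscle, was listed at 0 in every cell.

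Subunits that recognise fibronectin or related ligands did not all fall on one side. Itga5 (chr15:103344286-103366763, minus strand) was present in 9 of 21 Sox9Y440X/+ mesenchyme-like cells (42.9%, 21.8 to 66.0%), 6 of 37 Sox9Y440X/+ epithelium-like cells and 13 of 56 WT epithelium-like cells, with a difference of 1.19. Both cells with other markers held it, at 80.4 FPKM in the endothelial and 49 in the pericyte one, and without them 7 of 19 cells held it and the difference was 0.76, which ends the call. Itga9, which binds tenascin and other ligands (chr9:118606690-118901003, plus strand), was present in 7 of 21, 2 of 37 and 8 of 56 cells. Its highest FPKM was 269 in mesenchyme-like, 3.10 in Sox9Y440X/+ epithelium-like and 344 in WT epithelium-like cells, and its difference was 1.41, or 1.58 without the 2 cells. Itga8, a receptor subunit for nephronectin in kidney and mesenchyme, was present in 6 of 21, 0 of 37 and 1 of 56 cells, with a difference of 0.99. Itga1, a collagen receptor subunit, was present in 5 of 21 mesenchyme-like cells and in 0 of 37 and 0 of 56 epithelium-like cells; its difference was 1.13, and 0.97 without the 2 cells, and it was below the 10% needed for a call.

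Itga4, which binds VCAM1 and fibronectin (chr2:79255426-79333123, plus strand), was found on the epithelial side. It was present in 0 of 21 Sox9Y440X/+ mesenchyme-like cells, 11 of 37 Sox9Y440X/+ epithelium-like cells (29.7%, 15.9 to 47%) and 17 of 56 WT epithelium-like cells (30.4%, 18.8 to 44.1%). Its highest FPKM was 0.328 in mesenchyme-like, 481 in Sox9Y440X/+ epithelium-like and 119 in WT epithelium-like cells, and the difference was -1.48. Itgav, the subunit shared by receptors for vitronectin, osteopontin and latent TGF-beta, was present in 5 of 21, 15 of 37 and 18 of 56 cells, with a difference of -0.70 that was not called.

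The other members were rare or absent. The leukocyte subunits Itgal, Itgax, Itgad, Itgb2 and Itgb7 and also Itgb2l were listed at 0 throughout, while Itgam and Itgae were present in 1 and 2 cells. Itga10 did not reach an FPKM of 1, Itga11 was present in 1 cell and Itga2 in 2. Itga2b, a subunit known from platelets, was present in 0 of 21 Sox9Y440X/+ mesenchyme-like, 3 of 37 Sox9Y440X/+ epithelium-like and 5 of 56 WT epithelium-like cells, at up to 137 and 79.1 FPKM in the epithelium-like groups. Its partner Itgb3 was present in 1 cell, an Sox9Y440X/+ epithelium-like cell that also held Itga2b. Itgb1bp1, which binds the tail of Itgb1, was present in 6 of 21, 10 of 37 and 11 of 56 cells, and Itgb1bp2 in 1 WT cell. In all, 9 of the 45 members were present in no cell and 13 in 1 to 9 cells.

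Complete receptors and trimers were then counted cell by cell. Both subunits of a laminin receptor were present in 3 of 21 Sox9Y440X/+ mesenchyme-like cells (14.3%, 3.05 to 36.3%; 2 of 19 without the 2 cells), 21 of 37 Sox9Y440X/+ epithelium-like cells (56.8%, 39.5 to 72.9%) and 30 of 56 WT epithelium-like cells (53.6%, 39.7 to 67.0%). Itga6 with Itgb1 was the most frequent pair in epithelium-like cells, in 2 of 21, 18 of 37 and 22 of 56 cells of these groups. Itga6 with Itgb4 was found in 0 of 21, 7 of 37 and 12 of 56, and Itga3 with Itgb1 in 1 of 21, 10 of 37 and 18 of 56, the 1 mesenchyme-like cell being the one with endothelial markers. The order was the other way for Itga5 with Itgb1, the classic fibronectin receptor. This pair was present in 9 of 21 (42.9%, 21.8 to 66.0%), 5 of 37 (interval 4.54 to 28.8%) and 10 of 56 cells (17.9%, 8.91 to 30.4%). Both cells with other markers held this pair, and without them it was in 7 of 19. Further pairs were divided. Itga4 with Itgb1, which also binds fibronectin, was in 0 of 21, 9 of 37 and 14 of 56 cells. Itgav with Itgb1 was in 5 of 21, 12 of 37 and 13 of 56, and Itga9 with Itgb1 in 6 of 21, 2 of 37 and 5 of 56. Any listed integrin pair was present in 16 of 21 (14 of 19 without the 2 cells), 28 of 37 and 36 of 56 cells.

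Itgb4 was present in 7 of 22 Sox9Y440X/+ epithelium-like cells with Itga6 and 2 of 15 without it, and in 12 of 29 WT epithelium-like cells with Itga6 and 4 of 27 without it. Itgb6 was likewise present in 5 of 15 Sox9Y440X/+ cells with Itgav and 4 of 22 without, and in 7 of 18 WT cells with Itgav and 5 of 38 without. Cells with a member also had more genes in all, and the part of depth in these pairings was not tested.

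Ligand and receptor were not always in the same cell. Of the mesenchyme-like cells with Fn1, 8 of 19 held Itga5, and 7 of 18 without the 2 cells. Of the 8 Sox9Y440X/+ epithelium-like cells with Fn1, none held Itga5 (0 of 8), while 6 of the 29 without Fn1 did. In WT epithelium-like cells, 2 of 5 cells with Fn1 and 11 of 51 without it held Itga5.

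All 3 chains of a known laminin were present in 6 of 21 Sox9Y440X/+ mesenchyme-like (28.6%, 11.3 to 52.2%; 5 of 19 without the 2 cells), 11 of 37 Sox9Y440X/+ epithelium-like (29.7%, 15.9 to 47%) and 13 of 56 WT epithelium-like cells (23.2%, 13 to 36.4%). These totals were made up mostly of different trimers, but Lama1 with Lamb1 and Lamc1 was in 1 of 21, 1 of 37 and 0 of 56 cells. Lama2 with Lamb1 and Lamc1 was in 2 of 21 mesenchyme-like cells, and Lama2 with Lamb2 and Lamc1 in 1 of 21. Neither Lama2 trimer was in an epithelium-like cell. Lama4 with Lamb1 and Lamc1 was present in 5 of 21 mesenchyme-like cells, or 4 of 19 without the 2 cells, and in none of the 37 and 56 epithelium-like cells. Lama5 with Lamb2 and Lamc1 was present in 0 of 21, 9 of 37 and 11 of 56 cells, and Lama5 with Lamb1 and Lamc1 in 0 of 21, 7 of 37 and 2 of 56. A known trimer together with a laminin receptor was present in 0 of 21, 7 of 37 and 10 of 56 cells.

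**Figure D4:**
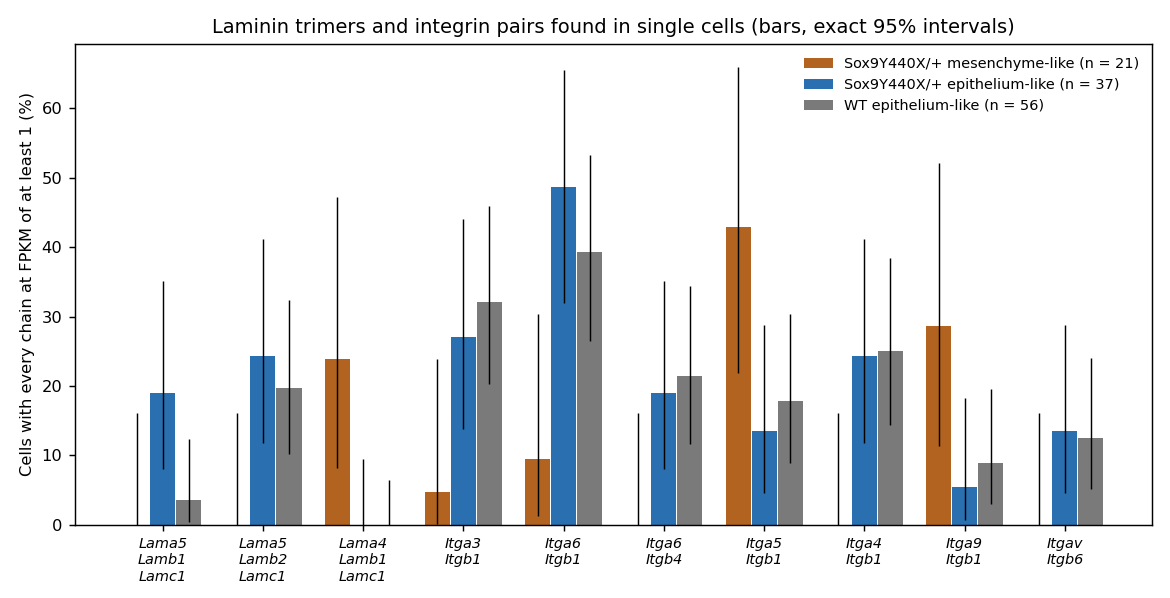
Share of cells (%, vertical axis) that hold every chain of a laminin trimer or integrin pair at an FPKM of at least 1 in Sox9Y440X/+ mesenchyme-like (brown), Sox9Y440X/+ epithelium-like (blue) and WT epithelium-like cells (grey); lines are exact 95% intervals. The Lama5 trimers and the Itga6 pairs stand in the epithelium-like groups, apart from Itga6 with Itgb1 in 2 of 21 mesenchyme-like cells, and Lama4 with Lamb1 and Lamc1 is in the mesenchyme-like group alone (5 of 21 cells). Itga5 with Itgb1 is in all 3 groups, with 9 of 21, 5 of 37 and 10 of 56 cells.

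The 1 WT mesenchyme-like cell gives no comparison of connective tissue between genotypes. It held Fn1 at 38.4, Nid2 at 32.1, Itga1 at 26.4, Itga5 at 16.5, Nid1 at 16.4, Lamb2 at 16.3, Agrn at 12.8 and Itgb1 at 7.51 FPKM. No laminin alpha chain was above 0 in it, and Lama5, Itga6, Itga4, Itgb4 and Itgb6 were listed at 0.

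Epithelium-like cells were themselves not uniform in these genes. In the clusters, made without the members, Itga4 was present in 16 of 22 cells of cluster 3 (high in Aldh1a1), 10 of 28 of cluster 6 (high in Spp1 and Oc90) and 2 of 9 of cluster 7, and in 0 of 13, 0 of 11 and 0 of 10 cells of clusters 1, 2 and 8. In cluster 3 the genotypes had the same count, with 8 of 11 Sox9Y440X/+ and 8 of 11 WT cells holding Itga4. Cluster 1, ionocyte-like from Foxi1 and proton pump genes, held Itgav in 10 of 13 cells, against 6 of 28 in cluster 6. In cluster 1 Itgav was present in 2 of 5 Sox9Y440X/+ and 8 of 8 WT cells. Itgav was not particular to cluster 1. Over all epithelium-like cells it was present in 15 of 37 Sox9Y440X/+ and 18 of 56 WT cells, most of them in other clusters. Cluster 6 had fewer genes per cell than cluster 1, with medians of 3095 and 4520. WT epithelium-like cells with Itgav had a median of 4491.5 genes, against 3046 in those without it, and the part of depth was not tested.

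Hspg2 ran the other way. It was present in 3 of 13 ionocyte-like cells, against 24 of 28 cells of cluster 6, 19 of 22 of cluster 3 and 10 of 11 of cluster 2. Nid2 was present in 4 of the 13 ionocyte-like cells, all of them WT (0 of 5 Sox9Y440X/+ and 4 of 8 WT cells), and in 3 of the 80 other epithelium-like cells. Itgb5 was present in 10 of 22 cells of cluster 3 and in 0 of 13 ionocyte-like cells. Few cells outside cluster 3 held it, since its totals were 8 of 37 Sox9Y440X/+ and 7 of 56 WT epithelium-like cells. Epithelium-like cells with Itgb5 had medians of 5566.5 (Sox9Y440X/+) and 4998 (WT) genes, against 4200 and 3159 without it. The part of depth was not tested. The ionocyte-like cells had a median of 4520 genes, above those of clusters 6, 7 and 8, where the medians were 3095, 2538 and 2057.5. Clusters 2 and 3 had more genes than the ionocyte-like cells, with medians of 4852 and 5325. The 2 mesenchyme-like clusters differed in depth too, with medians of 3990 and 2560 genes, and Itgb1 was present in 15 of 15 and 3 of 7 of their cells and Lamc1 in 8 of 15 and 0 of 7.

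**Figure D5:**
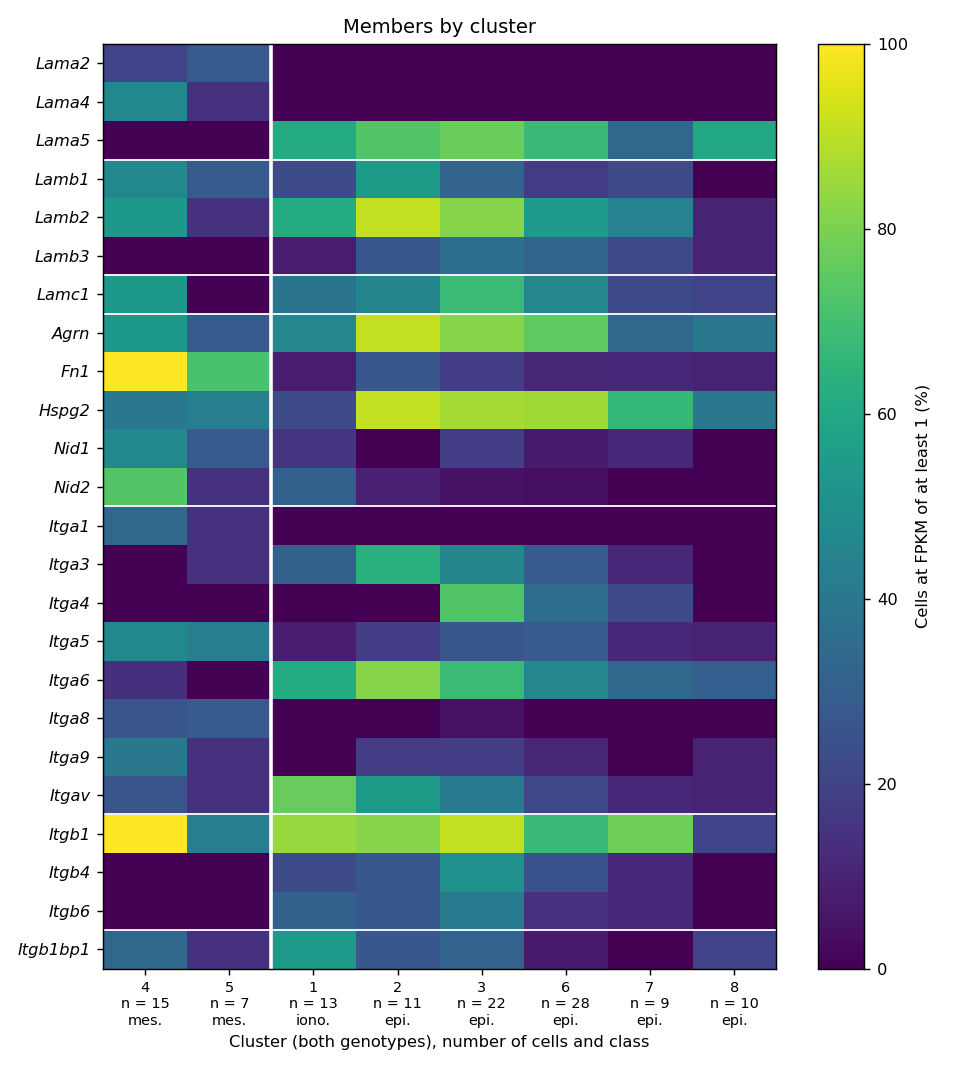
Share of cells (%, colour) at an FPKM of at least 1 for 24 members described singly (rows, by role) in the 8 clusters (columns, with their numbers of cells; mes., mesenchyme-like; iono., ionocyte-like; epi., other epithelium-like). Itga4 is high in cluster 3 (16 of 22 cells), Itgav in the ionocyte-like cluster 1 (10 of 13), and Fn1 in cluster 4 (15 of 15). Cells of other epithelium-like clusters hold Itgav too.

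Between genotypes, the epithelium-like cells carried much the same set of members. Of the 45 members, 21 were present in at least 10% of the epithelium-like cells; 1 was called higher in Sox9Y440X/+ cells (Itgb1) and 0 lower, and no member of the 9 tested ligand genes was called. Over the 8994 genes tested, 9.12% were called higher and 1.57% lower. The median difference, Sox9Y440X/+ minus WT, was 0.12 over the members and 0.23 over all tested genes, and 14 of the 21 members (66.7%) were above 0, as were 68.8% of all tested genes. The count of members called is thus close to this background and shows nothing particular to them.

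Itgb1 averaged 4.45 ± 2.25 in Sox9Y440X/+ and 3.44 ± 2.68 in WT epithelium-like cells (SD over cells), a difference of 1.02 that is smaller than either SD. Its level without logarithms was 44.2 in Sox9Y440X/+ and 33.8 in WT cells (mean FPKM). Among cells with 2500 to 5500 genes the difference was 0.29, against WT cells without Xist it was 0.51, and within the 3 clusters with at least 5 cells of each genotype it averaged 0.21. In those clusters Itgb1 was present in 5 of 5 Sox9Y440X/+ against 6 of 8 WT cells of cluster 1, 10 of 11 against 10 of 11 of cluster 3, and 4 of 6 against 15 of 22 of cluster 6. Cluster 8, with 0 Sox9Y440X/+ and 10 WT cells and the lowest number of genes, held Itgb1 in 2 of 10 cells.

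Lamb1 came next, present in 14 of 37 Sox9Y440X/+ (37.8%, 22.5 to 55.2%) and 9 of 56 WT epithelium-like cells (16.1%, 7.62 to 28.3%), with a difference of 0.89. It was 0.26 among cells with 2500 to 5500 genes and 0.03 within clusters. Cluster 2, of 10 Sox9Y440X/+ cells and 1 WT cell, held Lamb1 in 6 of 10 and 0 of 1 cells. Lamb1 made up 27.6% of the beta chain FPKM in Sox9Y440X/+ and 8.04% in WT epithelium-like cells, and Lamb3 12.5% and 36.9%; 1 Sox9Y440X/+ cell carried 38.2% of the Lamb1 signal of its group.

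The remaining genotype differences were smaller. Itgb1bp1 differed by 0.77, Fn1 by 0.55 and Agrn by 0.54. The lowest difference was that of Itga9, -0.68, with 2 of 37 Sox9Y440X/+ and 8 of 56 WT epithelium-like cells and mean levels of 0.156 and 18.5 FPKM. A single WT cell held 33.3% of the WT signal. Lama5, Lamb2 and Itga4 differed by 0.09, 0.12 and 0.03, against SDs over cells of 2.27 to 2.92.

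Genes that work with the members were read from 5 further lists, again without a test. Differences on the log2 scale stand in parentheses. Apart from Itgb1bp1, which is also a member, these genes were read in the main setting only. Their class values include the cells with endothelial and pericyte markers. As among the members, a gene present in 1 class alone passed the 10% limit through that class and could only come out higher there. Their genotype values were not taken within clusters or among cells with similar numbers of genes. Over all tested genes 8.84% were called higher and 18% lower between classes, with a median of -0.20, and 9.12% higher and 1.57% lower between genotypes, with a median of 0.23. Of 19 other basement membrane components, 9 were tested between classes, with 3 called higher and 4 lower in Sox9Y440X/+ mesenchyme-like cells and a median of -0.10. Tinagl1 was present in 1 of 21 mesenchyme-like and 31 of 37 epithelium-like cells (-4.85), Fras1, a protein that anchors embryonic epithelia to the dermis, in 2 of 21 and 27 of 37 (-2.36), and Col18a1, a basement membrane collagen, in 4 of 21 and 25 of 37 (-2.22). Col4a1, a main chain of type IV collagen, was present in 10 of 21 and 7 of 37 (1.46). Between genotypes 8 of this list were tested and 0 were called, with a median of 0.13; the differences of greatest size were 0.37 for Col4a2, 0.30 for Col4a5, -0.24 for Col18a1 and 0.21 for Tinagl1.

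Of 11 non-integrin laminin receptors and hemidesmosome genes, 10 were tested between classes, with 0 called higher and 5 lower and a median of -0.90, against 8.84% higher, 18% lower and a median of -0.20 over all tested genes. Bcam, a receptor for Lama5 laminins, was present in 0 of 21 mesenchyme-like and 37 of 37 epithelium-like Sox9Y440X/+ cells, at means of 0 and 149 FPKM (-6.82). Sdc4, a syndecan, was present in 3 of 21 and 31 of 37 (-3.74), the hemidesmosome linker Plec in 1 of 21 and 29 of 37 (-2.46), and Cd151, a tetraspanin partner of laminin-binding integrins, in 1 of 21 and 12 of 37 (-1.49). Between genotypes 9 were tested and 0 called, with a median of 0.23 and the differences of greatest size at 0.98 for Sdc2, 0.48 for Dag1, -0.42 for Sdc1 and -0.35 for Dst. Bcam was present in 37 of 37 Sox9Y440X/+ and 53 of 56 WT epithelium-like cells.

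Of 18 other integrin ligands, 13 were tested between classes, with 7 called higher and 2 lower and a median of 1.27. Over all tested genes 8.84% were called higher and 18% lower, with a median of -0.20. Vcam1, Fbln2, Postn and Fbln5, among the 7, were present in 0 of 37 epithelium-like cells, and Npnt, among the 2, in 0 of 21 mesenchyme-like cells. These genes passed the 10% limit through 1 class alone, so their direction was set by it. Spp1 (osteopontin) was present in 1 of 21 mesenchyme-like and 22 of 37 epithelium-like Sox9Y440X/+ cells (-4.63). Vcam1, the ligand of the Itga4 pair, was present in 13 of 21 and 0 of 37 (3.98), opposite to Itga4. Tgfbi was present in 14 of 21 and 2 of 37 (3.80) and Fbln2 in 12 of 21 and 0 of 37 (2.49). Between genotypes 8 were tested, with 1 called higher and 2 lower and a median of 0.03. The matricellular ligand Cyr61 was present in 27 of 37 Sox9Y440X/+ and 26 of 56 WT epithelium-like cells (3.46), Spp1 in 22 of 37 and 43 of 56 (-1.88), Tgfbi in 2 of 37 and 12 of 56 (-1.19) and Mfge8 in 25 of 37 and 41 of 56 (-0.72).

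Of 23 integrin adaptor and focal adhesion genes, 19 were tested between classes, with 3 called higher and 4 lower and a median of -0.01. The list and its counts include Itgb1bp1, which is also a member. Tgfb1i1 (Hic-5) was present in 13 of 21 mesenchyme-like and 0 of 37 epithelium-like Sox9Y440X/+ cells (3.77), Fermt2, kindlin-2, in 10 of 21 and 33 of 37 (-3.14), Actn4 in 12 of 21 and 32 of 37 (-1.81) and Pxn, paxillin, in 2 of 21 and 20 of 37 (-1.40). Between genotypes 18 were tested, with 2 called higher, 0 lower and a median of 0.21, which is close to the 9.12% called higher and the median of 0.23 over all tested genes and shows nothing particular to the list. Actn4, an actin crosslinker, was present in 32 of 37 Sox9Y440X/+ and 30 of 56 WT epithelium-like cells (1.87) and Vcl, vinculin, in 19 of 37 and 11 of 56 (1.02), while Parva and Zyx differed by 0.89 and 0.81.

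Of 17 basement membrane proteases and inhibitors, 11 were tested between classes, with 5 called higher, 0 lower and a median of 0.88. Mmp2, a gelatinase that cuts type IV collagen, was present in 19 of 21 mesenchyme-like and 0 of 37 epithelium-like Sox9Y440X/+ cells (6.31), Htra1 in 15 of 21 and 7 of 37 (4.08), Adamts1 in 14 of 21 and 9 of 37 (2.13) and Bmp1, which processes laminin and procollagen chains, in 12 of 21 and 11 of 37 (1.36). Between genotypes 8 were tested, with 1 called higher, 0 lower and a median of 0.24, again close to the 9.12% and 0.23 over all tested genes. Mmp14, a membrane protease that activates Mmp2, was present in 25 of 37 Sox9Y440X/+ and 19 of 56 WT epithelium-like cells (1.43), Adamts1 in 9 of 37 and 4 of 56 (0.78), Mmp11 in 6 of 37 and 4 of 56 (0.35) and Timp1 in 6 of 37 and 11 of 56 (-0.34).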

How the data were processed

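Single cells of the endolymphatic sac were sequenced by Smart-seq2, and the authors deposited 1 table of FPKM values (48555 gene entries, 120 cells). Per the submitters' processing notes, the build was mm10 and the tools were Cufflinks, HTSeq, HISAT2 and SAMtools 0.1.18, while settings and annotation were not stated there. The lowest deposited FPKM above 0 was 8e-318, too low to stand for reads, hence the limit of 1. Entries with the same symbol were summed. A listed 0 can be a failed estimate: Gapdh was at 0 in 2 of the 115 cells used.

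Values were analysed as log2(FPKM + 1) of the deposited table, a scale that understates differences of low genes. Cells were clustered without the members (Ward linkage, 15 principal components, 1500 most variable genes, 8 clusters) and each cluster took the name of the marker list that was highest on average, provided that 3 of its markers were in most cells. Genotype differences compare epithelium-like cells, Sox9Y440X/+ minus WT; class differences compare Sox9Y440X/+ cells, mesenchyme-like minus epithelium-like. Genes present in under 10% of the pooled cells were not counted as tested. No cell is a replicate and no test was run; doublets were not called. No 2 cells correlated above 0.698. The computation was tested on simulated data. Members described singly had a difference of at least 1 or were present in at least 25% of the cells of 1 group; of each further list the 4 tested genes with the largest differences are given. The members and lists were chosen with earlier results of these data known. Coordinates are from GENCODE M21; promoter sequences are from RefSeq. Python 3.11.15, numpy 2.4.6, pandas 2.3.3 and scipy 1.17.1 were used. Alternatives covered the pseudocount, scaling, cell and gene filters, clustering, class rule, detection limit and subsets of cells. The values of 1 member are not reported here, although counts over the members include it.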

Additional observations from a re-analysis of the deposited data

How the results depend on the processing

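No called value of a member changed sign, and genes of the further lists, apart from the member Itgb1bp1, were not taken through the alternatives. The number of members called higher in Sox9Y440X/+ epithelium-like cells, 1 in the main setting, was 3 with a pseudocount of 0.1 and against WT cells without Xist, 2 with the log2 ratio of mean FPKM and outside the ionocyte-like cluster, and 0 with a pseudocount of 10, after scaling cells to 1 total, with at least 2000 genes, with 2500 to 5500 genes and within clusters. The number called lower, 0, was 3 with the log2 ratio of means. The median member difference between genotypes, 0.12, was 0.32 with a pseudocount of 0.1, -0.12 with 2500 to 5500 genes, -0.093 against WT cells without Xist and -0.20 within clusters. Between classes, the 6 called higher became 1 with a pseudocount of 10; the 7 called lower became 13 with a pseudocount of 0.1 and 2 with one of 10; the median of -0.55 was -1.01, -0.17 and 0 with a pseudocount of 0.1, of 10 and no filter on low values. At a limit of 5 FPKM a complete laminin trimer was found in 3.57% of WT epithelium-like cells, against 23.2% at 1 FPKM. The causes were not tested. With 5 or 12 clusters, or with the members in the clustering, the same 21, 37 and 56 cells fell in the 3 groups. The class comparison and the counts of mesenchyme-like cells without the cells with endothelial or pericyte markers were added after seeing the data. Depth limits what a 0 can show. No paired analysis was possible because nothing was tested and the numbers given to cells only name them.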

Other observations

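Of the 5 cells left out for having fewer than 1000 genes, 1 Sox9Y440X/+ cell, with 460 genes, held members at an FPKM of at least 1: Lamb2 at 7.84, Agrn at 4.15 and Hspg2 at 4.05. All 3 values lie below the highest WT value of the same gene.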
